A study of Rattus norvegicus with 44 samples.

Results

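Kidney cortex of 15-day-old male rats homozygous for an altered Xdh allele was compared with cortex of wild-type males of the same age. The comparison takes the 4 libraries labelled PND15_Homo and the 4 labelled PND15_WT, 8 of the 44 in the series (PND, postnatal day). A gene was tested where its FPKM, a read count scaled by gene length and library depth, reached 1 in at least 3 of these 8 libraries, which held for 14412 of the 32545 genes in the table. The series collected whole litters at PND0, PND5, PND15 and PND21, genotyped every pup (WT, Het or Homo, for wild type, heterozygotes and homozygotes), and sequenced poly-A RNA from frozen cortex. Besides the 8 libraries, the 4 Het libraries of PND15, the 3 WT, 4 Het and 4 Homo libraries of PND5 and the 3 WT and 3 Homo libraries of PND21 were used below, all from untreated males. An alternative fit took in all 44 libraries, with those of PND0 and the Het libraries of PND21. No source used here gives the kind of Xdh allele or the rat strain, or ties a library to a litter. Libraries are numbered within a group in record order, which pairs nothing. The p-values weigh the difference between groups against the spread between these libraries. Any littermates among them could not be taken into account.

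Xdh encodes xanthine dehydrogenase, also called xanthine oxidoreductase, the enzyme that converts hypoxanthine to xanthine and xanthine to urate in the last steps of purine breakdown. The enzyme can also pass electrons to oxygen and make reactive oxygen species. Xanthine is poorly soluble, and loss of the enzyme is known to lead to xanthine deposits in the kidney. In the weeks after birth the rat kidney finishes nephron formation, and its tubules acquire their adult carriers and their oxidative metabolism. Injured tubule cells are known to make a characteristic set of products, among them the surface receptor KIM-1 (Havcr1), the iron carrier protein lipocalin-2 (Lcn2), the chaperone clusterin (Clu) and the protease matrilysin (Mmp7), while the growth factor Egf marks the healthy thick ascending limb and distal tubule.

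The gene that the genotypes refer to was lower in the Homo libraries but still detected. Xdh (ENSRNOG00000007081, chromosome 6, 25149235 to 25211494, minus strand, in the deposited table's coordinates, for which no source used here names a genome build) was at 17.8, 14.1, 14.2 and 16.9 FPKM in the WT libraries. It was at 6.46, 4.95, 8.03 and 2.87 FPKM in the Homo libraries and at 8.95, 13.2, 11.2 and 10.4 FPKM in Het. Every Homo library was below every WT and every Het library, and Homo library 4 was the lowest. The Homo mean was 35.4% of the WT mean (5.58 ± 2.2 against 15.7 ± 1.88 FPKM, SD, n = 4 each), a difference of -1.41 ± 0.23 (SE) in log2(FPKM + 1), with an adjusted p of 0.012 (limma, Benjamini-Hochberg over all genes tested). The two-sided exact permutation test of the same difference gave p = 0.0286, the smallest that 4 against 4 can give. Among the alternatives tried, the call was lost only when all 44 libraries were fitted together (adjusted p = 0.0807). That fit shares 1 spread over all ages and genotypes, which need not hold at PND15. Reads over the gene do not tell an intact transcript from an altered one.

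The 8 libraries held 13364867 to 18142414 counted reads each. Libraries of one group differed from each other by more than counting error, with r between 0.978 and 0.987 on the log2 scale, so none was a copy of another. Markers of the cortex were present in all 8: the proximal tubule phosphate carrier Slc34a1 at 618 to 1670 FPKM, the podocyte slit diaphragm gene Nphs1 at 15.9 to 24.3 FPKM, and the thick limb protein Umod at 650 to 1060 FPKM. The Homo libraries had a smaller share of reads on mitochondrial genes (5.31 to 7.2%, against 7.63 to 9.42% in WT). Their summed FPKM was also smaller (501663 to 541866, against 546480 to 585558), and neither range overlapped. Calls after rescaling to the same summed FPKM are given below. The part of the mitochondrial share in the results was not tested. In bulk cortex, fewer cells of a type and less RNA per cell cannot be told apart.

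Of the 14412 genes tested, 2452 were called at an adjusted p under 0.05 (17%): 1270 were higher in Homo (8.81%) and 1182 lower (8.2%). The rises were the larger ones: 316 genes rose by at least 1 on the log2 scale and 60 fell by as much, and the median called difference was 0.66 for rises and -0.48 for falls. The median over all genes was -0.00. Values of the groups did not overlap for 3226 genes (22.4%), of which 2257 were called. The filter let in 220 genes with no WT library at 1 FPKM, and 142 of these were called higher. Such genes could only differ upwards, so counts of risen genes in most lists that hold them are also given without them below. When each library was rescaled to the same summed FPKM (TPM), the median over all genes moved to 0.091, and 1994 genes were called higher and 684 lower. Between 825 genes (without WT library 2) and 3410 (without Homo library 4) were called when 1 library was left out. The count was also more than 1.5 times smaller without Homo library 1 (1130) or 3 (883), or WT library 1 (913) or 3 (1189).

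The 5 markers of tubule state separated the genotypes completely. Havcr1 (chromosome 10, 31813814 to 31848379, plus strand), the phosphatidylserine receptor that lets injured proximal tubule cells take up debris, was at 0.799, 1.75, 1.15 and 1.12 FPKM in WT and at 95.1, 37.3, 49 and 29.2 FPKM in Homo. Each Homo library exceeded the highest WT library by more than an order of magnitude, and Het stayed at the WT level (1.37 FPKM on average). The mean rose 43.6-fold, by 4.48 ± 0.33 in log2(FPKM + 1) (limma adjusted p = 0.00315), the largest rise among the named genes. Lcn2 (chromosome 3, 11414186 to 11417546, minus strand), which binds bacterial iron carriers, was at 5.84, 5.98, 8 and 7.59 FPKM in WT and at 197, 141, 218 and 56.4 FPKM in Homo. The groups were far apart, with Homo library 4 the lowest of its group, and the mean rose 22.3-fold (4.14 ± 0.40, adjusted p = 0.00763).

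Clu (chromosome 15, 42640146 to 42665857, plus strand), a secreted chaperone, was at 58.6, 60.9, 55.8 and 58.1 FPKM in WT and at 1670, 497, 690 and 415 FPKM in Homo. Homo library 1 was far above the other 3, all of which were still well above WT, and the mean rose 14-fold (3.56 ± 0.39, limma adjusted p = 0.00922). Mmp7 (chromosome 8, 5893249 to 5901049, plus strand), a matrix protease of stressed epithelium, was at 0, 0, 0.12 and 0.0506 FPKM in WT, 3 reads in all, and at 21.8, 18.5, 25.3 and 6.14 FPKM in Homo, 1150 reads. With so few WT reads no fold is given, and the log2 difference of 4.03 ± 0.37 (adjusted p = 0.00487) depends on the pseudocount of 1. In the fit of recovered reads (voom) the adjusted p of Mmp7 was 0.0701. Egf (chromosome 2, 68820615 to 68895920, plus strand) was at 52.3, 49.9, 27.6 and 25.8 FPKM in WT and at 7.4, 13.8, 11.4 and 21.6 FPKM in Homo. Its groups did not overlap but came within a few FPKM of each other, WT itself being split into a higher and a lower pair. Egf fell to 0.348 of the WT mean (-1.47 ± 0.35, adjusted p = 0.0263), and the call was lost without any one of Homo libraries 1, 2 and 3 or WT libraries 1 and 2 (highest adjusted p = 0.0797).

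**Figure D1:**
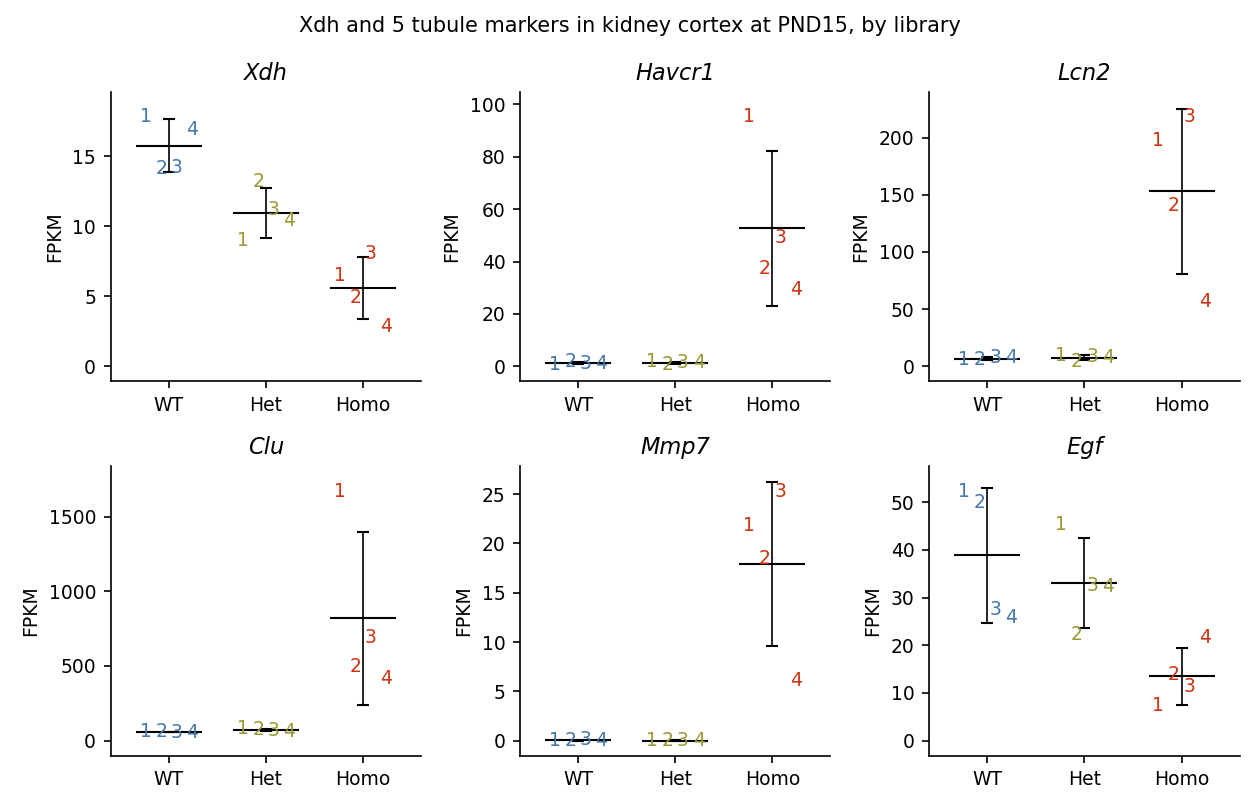
FPKM of Xdh and the 5 markers in each PND15 library of WT, Het and Homo (points, 4 libraries per genotype; bars, mean and SD). Havcr1, Lcn2, Clu and Mmp7 are high in all 4 Homo libraries alone, Xdh and Egf are low there, and the Het libraries sit with WT for the markers.

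The wider list of tubular injury and repair genes moved with these markers. Of its 29 members tested, of 31 in the table, 21 rose and none fell, with a median log2 difference of 0.93; without Mmp7, the one member with no WT library at 1 FPKM, 20 of 28 rose. Spp1, the secreted phosphoprotein osteopontin, was the most abundant of them at 599, 690, 709 and 656 FPKM in WT and at 5860, 3410, 3850 and 2230 FPKM in Homo. Every Homo library was several times above WT, and the mean rose 5.78-fold (2.45 ± 0.25, limma adjusted p = 0.00623). Sox9, a transcription factor of regenerating tubule, rose from 1 to 5.41 FPKM on average, and Tnfrsf12a, the receptor of the cytokine TWEAK, from 14.2 to 53.6 FPKM. The hyaluronan receptor Cd44 rose from 3.24 to 13.3 FPKM, the protease inhibitor Timp1 from 27.9 to 105 FPKM and the keratin Krt18 from 42.4 to 90.2 FPKM. Its partner Krt8 (178 in WT and 231 FPKM in Homo, adjusted p = 0.0733), Vcam1 (17.3 and 18.4 FPKM, 0.616) and the stress cytokine Gdf15 (23.7 and 33.1 FPKM, 0.41) did not pass. Without WT library 1 the list's 21 rises were 13; with any other library left out they were 15 to 21.

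Beyond the markers, the largest rises included 2 related cytokines, a regulator of cytokine receptors and the fibrinogen chains. Il19, a cytokine of the interleukin-10 family, was at 0.269, 0.414, 0 and 0.32 FPKM in WT (8 reads) and at 31.3, 13.2, 22.5 and 6.08 FPKM in Homo (558 reads). Il24, its relative, was at 0.245, 0.44, 0.401 and 0.34 FPKM in WT and at 16.5, 8.87, 13.9 and 5.84 FPKM in Homo. Both were near zero in every WT library and present in every Homo library, and the log2 differences were 3.74 ± 0.42 and 3.09 ± 0.26 (limma adjusted p = 0.00922 and 0.00328). Neither had a WT library at 1 FPKM, so both passed the filter through Homo alone and could only differ upwards. Socs3, which blocks signalling by the gp130 receptors and is itself switched on by STAT3, rose from 4.98 ± 1.42 to 74.6 ± 36 FPKM (SD, n = 4), 15-fold, with 117, 59.9, 88.5 and 33.3 FPKM in the Homo libraries. Others among the largest rises were Ifitm10 (5.93 to 62.1 FPKM), Sfn, the cell cycle checkpoint protein 14-3-3 sigma (17.7 to 139 FPKM), and Slc34a2, the phosphate carrier of lung and gut (8.27 to 64.5 FPKM).

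All 3 chains of fibrinogen, the plasma protein that forms clots, rose together. Fgg was at 0.737, 0.802, 0.517 and 0.619 FPKM in WT and at 33.4, 17.8, 13 and 9.72 FPKM in Homo. With no WT library at 1 FPKM, Fgg passed the filter through Homo alone and could only differ upwards. Fgb was at 2.85, 3.1, 3.19 and 3.4 FPKM in WT and at 54.5, 23, 21.4 and 18.5 FPKM in Homo. Fga was at 7.02, 9.28, 8.22 and 8.24 FPKM in WT and at 109, 47.8, 28.7 and 43.1 FPKM in Homo. For each chain Homo library 1 was the highest and no Homo library overlapped WT; the log2 differences were 3.41 ± 0.31, 2.74 ± 0.29 and 2.49 ± 0.35 (limma adjusted p = 0.00487, 0.00914 and 0.00939). The abundance in the file is per length of gene, and the chains were in the same order in both genotypes, Fga highest and Fgg lowest.

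These genes are neighbours in the genome. In the deposited table Fgg, Fga and Fgb lie on chromosome 2 at 181987217 to 181994514 (plus strand), 182006242 to 182013763 (plus strand) and 182027115 to 182038178 (minus strand), and Il19 and Il24 lie on chromosome 13 at 47664080 to 47670407 and 47618452 to 47623849 (both minus strand). Their promoter windows are shown, with that of Mmp7, because neighbouring genes moved together; the sequences are RefSeq's on build GRCr8, 250 bases before to 50 after the start, read 5′ to 3′ on the gene's strand. Capitals mark matches on either strand to AP-1 (TGANTCA), STAT (TTCNNNGAA) and the TATA box (TATAAA), which do not overlap here; NF-kB, HNF4 and HNF1 motifs were also searched, as was a short HNF1 motif (GTTAAT), which is not put in capitals. The windows are chr13:44958665-44958964 (minus) for Il19, chr13:44910711-44911010 (minus) for Il24, chr2:170700826-170701125 (minus) for Fgb, chr2:170671919-170672218 (plus) for Fga, chr2:170652833-170653132 (plus) for Fgg and chr8:13132793-13133092 (plus) for Mmp7.
Il19: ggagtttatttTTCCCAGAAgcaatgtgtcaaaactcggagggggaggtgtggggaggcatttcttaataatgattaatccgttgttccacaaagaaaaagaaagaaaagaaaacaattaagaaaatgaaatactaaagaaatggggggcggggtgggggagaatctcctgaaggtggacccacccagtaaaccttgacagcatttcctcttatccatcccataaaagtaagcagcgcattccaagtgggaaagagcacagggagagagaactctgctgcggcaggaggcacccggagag
Il24: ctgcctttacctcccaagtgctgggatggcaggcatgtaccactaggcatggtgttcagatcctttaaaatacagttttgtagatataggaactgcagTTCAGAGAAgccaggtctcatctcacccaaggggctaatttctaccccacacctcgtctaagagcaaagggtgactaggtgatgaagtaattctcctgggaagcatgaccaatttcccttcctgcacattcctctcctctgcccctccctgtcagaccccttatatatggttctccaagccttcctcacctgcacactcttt
Fgb: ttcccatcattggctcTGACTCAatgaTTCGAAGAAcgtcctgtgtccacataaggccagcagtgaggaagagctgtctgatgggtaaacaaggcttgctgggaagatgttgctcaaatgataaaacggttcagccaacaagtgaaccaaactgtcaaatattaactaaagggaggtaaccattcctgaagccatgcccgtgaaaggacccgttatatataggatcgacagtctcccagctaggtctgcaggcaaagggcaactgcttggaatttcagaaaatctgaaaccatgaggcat
Fga: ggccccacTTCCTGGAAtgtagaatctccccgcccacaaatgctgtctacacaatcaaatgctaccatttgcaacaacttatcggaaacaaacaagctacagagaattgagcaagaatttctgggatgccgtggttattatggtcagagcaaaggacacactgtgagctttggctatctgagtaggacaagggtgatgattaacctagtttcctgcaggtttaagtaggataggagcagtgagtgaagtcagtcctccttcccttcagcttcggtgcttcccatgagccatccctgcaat
Fgg: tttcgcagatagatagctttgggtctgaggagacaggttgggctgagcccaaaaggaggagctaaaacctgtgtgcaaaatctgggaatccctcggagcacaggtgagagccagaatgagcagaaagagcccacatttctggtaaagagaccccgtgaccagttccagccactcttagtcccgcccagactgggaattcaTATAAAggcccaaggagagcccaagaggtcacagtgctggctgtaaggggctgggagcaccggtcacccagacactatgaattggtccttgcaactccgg
Mmp7: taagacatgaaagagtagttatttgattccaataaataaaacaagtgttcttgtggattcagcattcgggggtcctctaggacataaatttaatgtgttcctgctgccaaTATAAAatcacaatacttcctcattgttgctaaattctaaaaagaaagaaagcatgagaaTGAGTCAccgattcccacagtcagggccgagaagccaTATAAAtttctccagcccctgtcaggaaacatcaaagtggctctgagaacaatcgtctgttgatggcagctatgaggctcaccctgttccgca

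A STAT match stood in the Il19, Il24, Fgb and Fga windows, starting 239 bases before the start in Il19, 152 in Il24, 223 in Fgb and 242 in Fga. Of all 33469 RefSeq windows, 8.87% hold one. AP-1 matches began 234 bases before the start in Fgb and 80 in Mmp7 (7.33% of all windows), and TATA boxes 50 bases before in Fgg and 140 and 43 before in Mmp7 (14.2%). No NF-kB (1.53% of all windows), HNF4 (0.391%) or full HNF1 (0.00299%) match was in these windows. The short HNF1 motif (7.45% of all windows) was matched 90 bases before the start in Fgb and 52 in Fga. The windows shown were chosen by how the genes moved, so the share is a description, and a match is not evidence of binding. A window was found for 70.8% of the genes that rose and 70.2% of those that fell, under the 80% needed for comparing shares over all called genes, so that comparison was void.

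Genes of interleukin-6 family signalling, which runs from gp130 receptors through JAK kinases to STAT3, rose at most steps. Of 24 members tested 19 rose and 1 fell (median 0.83), and of the 23 with a WT library at 1 FPKM 18 rose. The ligand Lif, counted in the cytokine list and not in this one, rose from 0.818 ± 0.141 to 6.09 ± 2.26 FPKM (SD, n = 4, limma adjusted p = 0.00487). Lif was at 9.42, 4.94, 5.53 and 4.48 FPKM in the Homo libraries, and no WT library was above 0.896 FPKM. Lif thus passed the filter through Homo alone and could only differ upwards. Among receptors, Osmr, for oncostatin M, rose from 5.65 to 27.3 FPKM and Il6r from 1.49 to 3.84 FPKM, Il11ra1 fell from 40.5 to 31.8 FPKM, and Lifr was at 57.6 and 49.6 FPKM (adjusted p = 0.0971). Stat3 itself rose from 51.3 to 86.6 FPKM, and the transcription factors Cebpb, Junb and Bcl3 rose from 28 to 65.8, 34.3 to 83.9 and 4.77 to 22.4 FPKM. Its 19 rises were 11 without Homo library 3 or WT library 2 and 13 to 20 without any other.

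Cytokines and chemokines rose in 20 of 27 members tested and fell in none (median 0.98); 9 of the 20 had no WT library at 1 FPKM, and 11 of the other 18 rose. A further 12 members in the table were below the filter. Il1rn, the natural antagonist of interleukin-1, was at 0.314, 0.786, 0.945 and 0.8 FPKM in WT and at 7.63, 7.37, 8.56 and 4.18 FPKM in Homo. All Homo libraries stood several-fold above the highest WT library (2.19 ± 0.20, limma adjusted p = 0.00426). Il1rn, Cxcl6, Lif, Il19 and Il24 were among the 9 with no WT library at 1 FPKM, which could only differ upwards. The monocyte attractant Ccl2 was at 1.96, 2.27, 2.87 and 5.05 FPKM in WT and at 18.7, 16.8, 23.7 and 8.81 FPKM in Homo, again without overlap (2.14 ± 0.31, adjusted p = 0.00939). The neutrophil attractant Cxcl6 rose from 0.14 to 6.15 FPKM, Ccl20 from 1.52 to 6.39 FPKM and Il34, a ligand of the Csf1 receptor, from 8.33 to 18 FPKM. The interferon-driven Cxcl9 (1.22 and 1.47 FPKM, adjusted p = 0.605) and Cxcl10 (7.21 and 9.59 FPKM, 0.249), and the alarmin Il33 (63.9 and 63 FPKM, 0.902), did not pass. These 20 rises were 13 without WT library 2 and 14 to 22 without any other library.

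Macrophage genes rose throughout the list. All 21 members tested rose, with a median of 1.30; 4 more in the table were below the filter, and of the 16 with a WT library at 1 FPKM 16 rose. Csf1r, the receptor that macrophages need to survive, was at 9.94, 9.5, 10.8 and 11.9 FPKM in WT and at 34.1, 30.9, 42.4 and 16.3 FPKM in Homo. Lyz2, their lysozyme, was at 41.3, 40.8, 43.5 and 31.4 FPKM in WT and at 247, 181, 225 and 75.4 FPKM in Homo. In both genes Homo library 4 was the nearest to WT but still above it. Summed over the list, FPKM was 146 to 159 in WT and 263 to 733 in Homo. Adgre1, the mouse F4/80 antigen, rose from 4.33 to 12.6 FPKM, Cx3cr1, the fractalkine receptor, from 2.02 to 7.19 FPKM, and Trem2, a lipid receptor, from 2.71 to 8.15 FPKM. The 21 rises were 13 without WT library 2 and 15 to 21 without any other library.

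Markers of lymphocytes and neutrophils were low. In the lymphocyte list 9 of 23 members in the table were tested and 5 rose, of which only Cd4 had a WT library at 1 FPKM; Cd4, which rat macrophages also carry, rose from 7.94 to 21.9 FPKM. The T cell receptor chain Cd3e was at 0.237, 0.243, 0.0443 and 0.263 FPKM in WT and at 1.75, 1.04, 2.67 and 0.779 FPKM in Homo, a low level without overlap. In the neutrophil list 5 of 18 were tested and 4 rose (3 of the 4 with a WT library at 1 FPKM), the calprotectin subunit S100a8 from 1.8 to 7.93 FPKM and S100a9 from 3.05 to 9.41 FPKM, while Mmp9 was at 13.9 and 12.8 FPKM (adjusted p = 0.924). Summed FPKM was 16.1 to 18.1 in WT and 21.5 to 59.2 in Homo for the lymphocyte list, and 17.7 to 24.8 and 26.3 to 47.6 for the neutrophil list. The part of these cells in the rises of cytokine and complement genes was not tested. The 5 lymphocyte rises were 8 without Homo library 4 and 1 to 3 without any other library. The 4 neutrophil rises were 2 without Homo library 1, 2 or 3 or WT library 1 or 2.

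Complement, the plasma protein cascade that tags and lyses targets, rose at the initiating, central and terminal steps. Of 22 members tested 18 rose and 1 fell (median 1.16), and of the 18 with a WT library at 1 FPKM 14 rose. C7, a component of the membrane attack complex, was at 77.5, 62.5, 54.1 and 79.6 FPKM in WT and at 554, 409, 675 and 197 FPKM in Homo. Homo library 4 was the lowest Homo library and was still above every WT library (6.7-fold in the mean, 2.61 ± 0.35, limma adjusted p = 0.00939). C3, the central component, rose from 0.802 to 8.89 FPKM and C1s, a protease of the first component, from 15.4 to 36.7 FPKM. C4a and C4b, near-identical copies whose reads the counting may have split, rose from 9.81 to 35.3 and from 1.84 to 14.6 FPKM. Of the regulators, Serping1 rose from 28 to 75.6 FPKM and Cd55 was at 5.67 and 5.33 FPKM (adjusted p = 0.714).

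Genes of antigen presentation and interferon response were counted as 1 list, and most of it rose. Of 28 members tested 19 rose and none fell (median 0.65), and of the 26 with a WT library at 1 FPKM 19 rose. The class II invariant chain Cd74 rose from 102 to 243 FPKM, the immunoproteasome subunit Psmb9 from 5.5 to 14.4 FPKM and B2m, the light chain of class I, from 179 to 266 FPKM. RT1 class II genes, whose paralogs can share reads, rose as well, RT1-Da from 21.3 to 52.9 FPKM. Isg15 (4.36 and 5.03 FPKM, limma adjusted p = 0.344), Mx2 (2.39 and 2.12 FPKM, 0.47) and Rsad2 (7.12 and 5.29 FPKM, 0.0777) did not pass. Pattern recognition and inflammasome genes rose in 17 of 23 tested (median 0.73), and in 14 of the 20 with a WT library at 1 FPKM. Pycard, the inflammasome adaptor, was at 3.37, 2.59, 3.08 and 2.55 FPKM in WT and at 7.84, 6.58, 7.1 and 5.6 FPKM in Homo, without overlap (adjusted p = 0.00866), and the adaptor Myd88 rose from 10.1 to 16.8 FPKM. Tlr4 (1.93 and 2.92 FPKM, 0.089) and Rela (29.6 and 35.8 FPKM, 0.064) did not pass. The antigen presentation rises were 9 without WT library 2, 10 without Homo library 3, 11 without Homo library 1 or WT library 1 and 12 without WT library 3. The pattern recognition rises were 5 without WT library 2, 8 without Homo library 1 or 3, 10 without WT library 1 and 11 without WT library 3.

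Cell death genes rose by small amounts. Of 21 tested 14 rose and none fell, with a median of 0.35. Ripk3, a kinase of necroptosis, was at 2.24, 1.42, 1.99 and 2.19 FPKM in WT and at 6.98, 4.43, 5.47 and 3.82 FPKM in Homo, and Tnfrsf1a, the TNF receptor, rose from 34.2 to 78.3 FPKM. The survival genes Bcl2 (5.12 and 4.39 FPKM, limma adjusted p = 0.54) and Bcl2l1 (30.5 and 29.2 FPKM, 0.588) did not pass. The 14 rises were 6 without WT library 1, 7 without Homo library 3, 9 without Homo library 1 or WT library 2 or 3, and 11 to 15 otherwise.

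In the list of fibroblast and matrix genes 14 of 37 members rose, 23 did not pass and none fell (median 0.42). Acta2, the smooth muscle actin of myofibroblasts, was at 84.1, 69.7, 81.7 and 84.8 FPKM in WT and at 248, 164, 230 and 122 FPKM in Homo. The groups did not overlap (1.20 ± 0.21, limma adjusted p = 0.0123), and Tagln, another contractile protein, rose from 117 to 273 FPKM. The growth factors Tgfb1 and Tgfb2 rose from 22.1 to 40.1 and from 6.08 to 12.5 FPKM. Col1a1 (281 and 312 FPKM, adjusted p = 0.546), Col3a1 (368 and 456 FPKM, 0.29) and Fn1 (182 and 241 FPKM, 0.162) did not pass. The 14 rises were 4 without WT library 2, 5 without WT library 1 or 3 or Homo library 3, 7 without Homo library 1, and 23 without Homo library 4.

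Proximal tubule carriers and the endocytic receptors fell. Of 30 members tested 22 fell and none rose (median -0.50; with TPM 19 fell and 2 rose). Slc34a1, the main phosphate carrier of the brush border, was at 1670, 1590, 1380 and 1360 FPKM in WT and at 618, 976, 746 and 1160 FPKM in Homo. The groups did not overlap, with Homo library 4 nearest to WT, and the mean fell from 1500 to 876 FPKM (-0.81, limma adjusted p = 0.0213). Slc15a2, a peptide carrier, was at 39, 43.6, 37.6 and 36.6 FPKM in WT and at 13.7, 19.4, 15.2 and 26.2 FPKM in Homo (-1.07 ± 0.17, adjusted p = 0.0111). Lrp2, the endocytic receptor megalin, fell from 225 to 155 FPKM, the glucose carrier Slc5a2 from 207 to 154 FPKM and the water channel Aqp1 from 434 to 271 FPKM. The amino acid carriers Slc7a9 (115 and 114 FPKM, adjusted p = 0.944) and Slc7a7 (187 and 188 FPKM, 0.976), the glucose carrier Slc2a2 (39.4 and 44.1 FPKM, 0.283) and the endocytic adaptor Dab2 (197 and 220 FPKM, 0.165) did not pass. The 22 falls were 8 without WT library 1, 9 without Homo library 3, 11 without WT library 2, 13 without Homo library 1 and 15 to 22 without any other.

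Carriers of urate and other organic anions fell, and the rest of the purine pathway around Xdh mostly did not pass. Of 20 carriers tested 13 fell and none rose (median -0.57). Slc22a12, the urate reabsorber URAT1, was at 129, 149, 125 and 107 FPKM in WT and at 53.4, 81.3, 56.5 and 92 FPKM in Homo, without overlap (-0.87, limma adjusted p = 0.0179). Slc16a9, a carnitine and organic anion carrier, fell from 52.1 to 30.4 FPKM, and Slc22a6 and Slc22a8, which take organic anions up from blood, fell from 249 to 149 and from 338 to 207 FPKM. The urate carriers Slc2a9 (2.93 and 2.75 FPKM, adjusted p = 0.7) and Abcg2 (33.4 and 30.1 FPKM, 0.351) did not pass. The 13 falls were 6 without WT library 1 or 2, 8 without Homo library 3, and 10 to 15 without any other. Of 32 purine genes tested 2 rose and 4 fell, Xdh among them (median 0.02; with TPM 5 rose and 2 fell), in a comparison where 17% of all genes were called. Gda, which deaminates guanine to xanthine, was at 1.48, 0.955, 1.66 and 1.37 FPKM in WT and at 12.7, 10.4, 14.4 and 2.68 FPKM in Homo, with library 4 far below the other 3. Mocos, which adds the sulfur that the molybdenum cofactor of Xdh needs, was at 1.38, 1.2, 1.12 and 1.17 FPKM in WT and at 3.3, 2.94, 3.56 and 2.56 FPKM in Homo (0.88 ± 0.12, adjusted p = 0.00939). Nt5e, the ectonucleotidase CD73, fell from 27.8 to 17.3 FPKM, and Adk and Prps2 fell from 71 to 55.4 and from 25.4 to 19.9 FPKM. Of the 4 falls 2 were left without Homo library 1 or 3 or WT library 1, 2 or 3. The salvage enzymes Aprt (225 and 260 FPKM, 0.138) and Hprt1 (6.31 and 8.53 FPKM, 0.902), and Pnp (97.2 and 107 FPKM, 0.403), did not pass.

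Fatty acid oxidation, the main fuel pathway of the proximal tubule, fell in most of the members tested. Of 30 members 22 fell and 1 rose (median -0.44; with TPM 20 fell). Ehhadh, a peroxisomal enzyme, was at 68.8, 80.2, 59.5 and 58 FPKM in WT and at 18.5, 30.3, 22.1 and 38.8 FPKM in Homo. The highest Homo library was well below the lowest WT library (-1.29 ± 0.22, limma adjusted p = 0.0121). Ppara, the lipid-sensing receptor that drives genes of this pathway, fell from 9.57 to 5.22 FPKM. Cpt1a, which admits fatty acids to the mitochondrion, was at 68.7 and 59.8 FPKM (adjusted p = 0.0672). The one riser, Cyp4a8, went from 1.04 to 6.89 FPKM; it belongs to a family of similar genes. The 22 falls were 11 without WT library 2, 13 without Homo library 3 and 15 to 25 without any other.

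Falls among gluconeogenesis and respiratory chain genes depended more on single libraries. Of 16 genes of gluconeogenesis and ammonia production 13 fell (median -0.57). Pck1, which commits to glucose synthesis, was at 961, 1210, 667 and 785 FPKM in WT and at 351, 551, 309 and 481 FPKM in Homo, without overlap (-1.10 ± 0.23, limma adjusted p = 0.0175). Fbp1 fell from 699 to 406 FPKM and the transcription factor Hnf4a from 107 to 71.1 FPKM, while Glul (322 and 373 FPKM, adjusted p = 0.172) did not pass. The 13 falls were 1 without WT library 1, 2 without WT library 2, 4 to 6 without Homo library 1 or 3 or WT library 3, and 11 to 13 otherwise. Of 29 genes of oxidative phosphorylation 13 fell and none rose (median -0.32), among them all of Sdha, Sdhb and Sdhd of complex II; Sdha went from 237 to 177 FPKM. The cytochrome oxidase subunits Cox4i1 (639 and 554 FPKM, adjusted p = 0.122) and Cox5a (272 and 230 FPKM, 0.119) did not pass. With TPM 5 of the 29 fell; 0 fell without Homo library 1 or 3 or WT library 1 or 2, 1 without WT library 3, and 18 without Homo library 4.

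The distal segments fell unevenly. In the loop of Henle and distal tubule 11 of 25 members tested fell and 2 rose (median -0.37; with TPM 7 fell). Kcnj1, the potassium channel ROMK, was at 128, 135, 116 and 101 FPKM in WT and at 61.4, 81.3, 79.2 and 80.9 FPKM in Homo. The groups did not overlap (-0.66 ± 0.12, limma adjusted p = 0.0124), and Slc12a1, the salt carrier blocked by loop diuretics, fell from 337 to 258 FPKM. Umod, the thick limb's main secreted protein, was at 975 and 836 FPKM (adjusted p = 0.247), and the thiazide-sensitive Slc12a3 at 66.9 and 45.4 FPKM (0.132). The calcium channel Trpv5 rose from 3.9 to 10.5 FPKM and the claudin Cldn19 from 37.6 to 54.2 FPKM. These 2 rises were 0 without WT library 1, 3 or 4 and 1 without WT library 2 or Homo library 1, 2 or 3. In the collecting duct 12 of 21 fell and none rose (median -0.48; with TPM 7 fell and 1 rose). Scnn1b, a subunit of the sodium channel ENaC, was at 26.1, 30.1, 25.2 and 24.5 FPKM in WT and at 14.1, 16.7, 14.2 and 17.2 FPKM in Homo, and Scnn1g fell from 23.2 to 12.6 FPKM, while Scnn1a was at 18.1 and 16.3 FPKM (0.57). Slc4a1, the bicarbonate exchanger of intercalated cells and of red cells, fell from 30.3 to 12.5 FPKM. Aqp2, the vasopressin-regulated water channel, was at 106, 114, 197 and 173 FPKM in WT and at 43.6, 77.6, 48.2 and 108 FPKM in Homo, so its groups overlapped; its call (adjusted p = 0.0477) was kept in 1 of the 8 fits that left out a library. Without WT library 1 or 2 the loop falls were 1 and the collecting duct falls 2; both were 2 without Homo library 3, 7 and 6 without Homo library 1 or WT library 3, and 7 and 7 without WT library 4. Without Homo library 2 the collecting duct falls were 7.

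The hormone, podocyte and endothelial lists held calls in both directions. Of 20 genes of vitamin D metabolism and kidney hormones 8 fell and 1 rose (median -0.30; with TPM 2 fell). Anpep, a brush-border peptidase, was at 290, 275, 230 and 234 FPKM in WT and at 138, 174, 131 and 185 FPKM in Homo, without overlap (limma adjusted p = 0.0126). The anti-ageing co-receptor Kl, klotho, fell from 94.2 to 69.6 FPKM, and Cyp24a1, which inactivates vitamin D, rose from 1.48 to 4.38 FPKM. The erythropoietin regulator Epas1 was at 78.7 and 81.8 FPKM (adjusted p = 0.723). In the podocyte list 3 of 19 fell and 1 rose (median -0.12; with TPM 1 fell and 3 rose), a share near the 17% called over all genes, the collagen Col4a4 falling from 91.3 to 55.4 FPKM and the actin organiser Synpo rising from 17.2 to 25.3 FPKM. The endothelial list was split: Icam1 and Selp, adhesion molecules for white cells, rose from 12.1 to 37.7 and from 0.226 to 1.74 FPKM, and Tek and Tie1, the angiopoietin receptors, fell from 21.4 to 16.1 and from 71.9 to 55.9 FPKM. Selp had no WT library at 1 FPKM and could only differ upwards. With TPM none of the 5 endothelial falls passed. The 8 hormone list falls were 2, and the 5 endothelial falls 0, without Homo library 1 or 3 or WT library 1 or 2. Without WT library 3 they were 4 and 2, without Homo library 2 they were 5 and 2, and without WT library 4 there was 1 endothelial fall. The 3 endothelial rises were 1 without Homo library 3 or WT library 1 or 2. Of the 3 podocyte falls 1 was left without any library but Homo 1 or 4.

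Antioxidant genes changed in both directions. In the glutathione and NRF2 list 12 of 23 fell and 2 rose (median -0.24; with TPM 8 fell and 3 rose). Gclc, the rate-limiting enzyme of glutathione synthesis, was at 347, 352, 341 and 289 FPKM in WT and at 94.3, 165, 80.5 and 250 FPKM in Homo, Homo library 4 coming close to WT without overlap (-1.31, limma adjusted p = 0.0301). Osgin1 fell from 26.8 to 12.6 FPKM and the glutathione transferase Gsta2 from 23 to 12.7 FPKM. Hmox1, which degrades haem, was at 10.3, 8.05, 9.46 and 9.99 FPKM in WT and at 20.6, 18.5, 19.9 and 13.3 FPKM in Homo (0.85 ± 0.13, adjusted p = 0.00939), and Nqo1, another NRF2 target, was at 5.4 and 5.33 FPKM (0.918). In the superoxide list 7 of 24 rose and 5 fell (median -0.04; with TPM 0.07, with 9 rises and 4 falls). The risers included 5 parts of the phagocyte oxidase, such as Cybb (4.68 to 13.4 FPKM), and Gpx2, a glutathione peroxidase of epithelium, which rose from 10.6 to 49.2 FPKM. Catalase (Cat) fell from 271 to 147 FPKM, the plasma peroxidase Gpx3 from 7120 to 4630 FPKM and Nox4, the tubule's own oxidase, from 71.7 to 54.7 FPKM. The 12 NRF2 list falls were 2 without any one of Homo libraries 1 and 3 and WT libraries 1, 2 and 3; without these same libraries the 7 superoxide rises were 2 to 4 and the 5 falls 1 or 2.

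Cell division, early nephron and hypoxia genes showed few calls against the 17% called over all genes. Of 35 cell cycle genes tested 2 fell and none rose (median -0.01; with TPM the median was 0.09, and 1 fell and 1 rose): the cyclin Ccnd1 went from 99.4 to 69.6 FPKM and Tyms from 21.1 to 17.2 FPKM. Mki67, present only in dividing cells, was at 12.4 and 11.5 FPKM (limma adjusted p = 0.373). Of 22 genes of nephron progenitors and early nephrons 2 fell, Crym among them, and 7 more were below the filter. In the ureteric list of 18, Wnt11, a signal of the branching tip, fell from 11 to 6.56 FPKM, Slco4c1 fell from 2.36 to 1.31 FPKM and Sox9, also in the injury list, rose (median -0.35). Of 24 hypoxia and glycolysis genes Hk2 rose, from 1.41 to 3.18 FPKM, and Tpi1 fell, from 7.15 to 4.25 FPKM. In the list of crystal handling, tight junction and mucin genes 7 of 20 rose and 2 fell (median 0.06). Its risers included the barrier claudins Cldn4 (45 to 105 FPKM) and Cldn7 (33.2 to 51.2 FPKM) and the calcification inhibitor Mgp (289 to 710 FPKM), and the kidney cadherin Cdh16 fell from 322 to 223 FPKM. The 7 rises were 4 without WT library 2. Falls in the early nephron list were 0 without Homo library 1 or 3 or WT library 1 or 2, 1 without Homo library 2 or WT library 3 or 4, and 6 without Homo library 4. Falls in the cell cycle list were 0 without Homo library 3 or WT library 1 or 2 and 1 without Homo library 1.

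**Figure D2:**
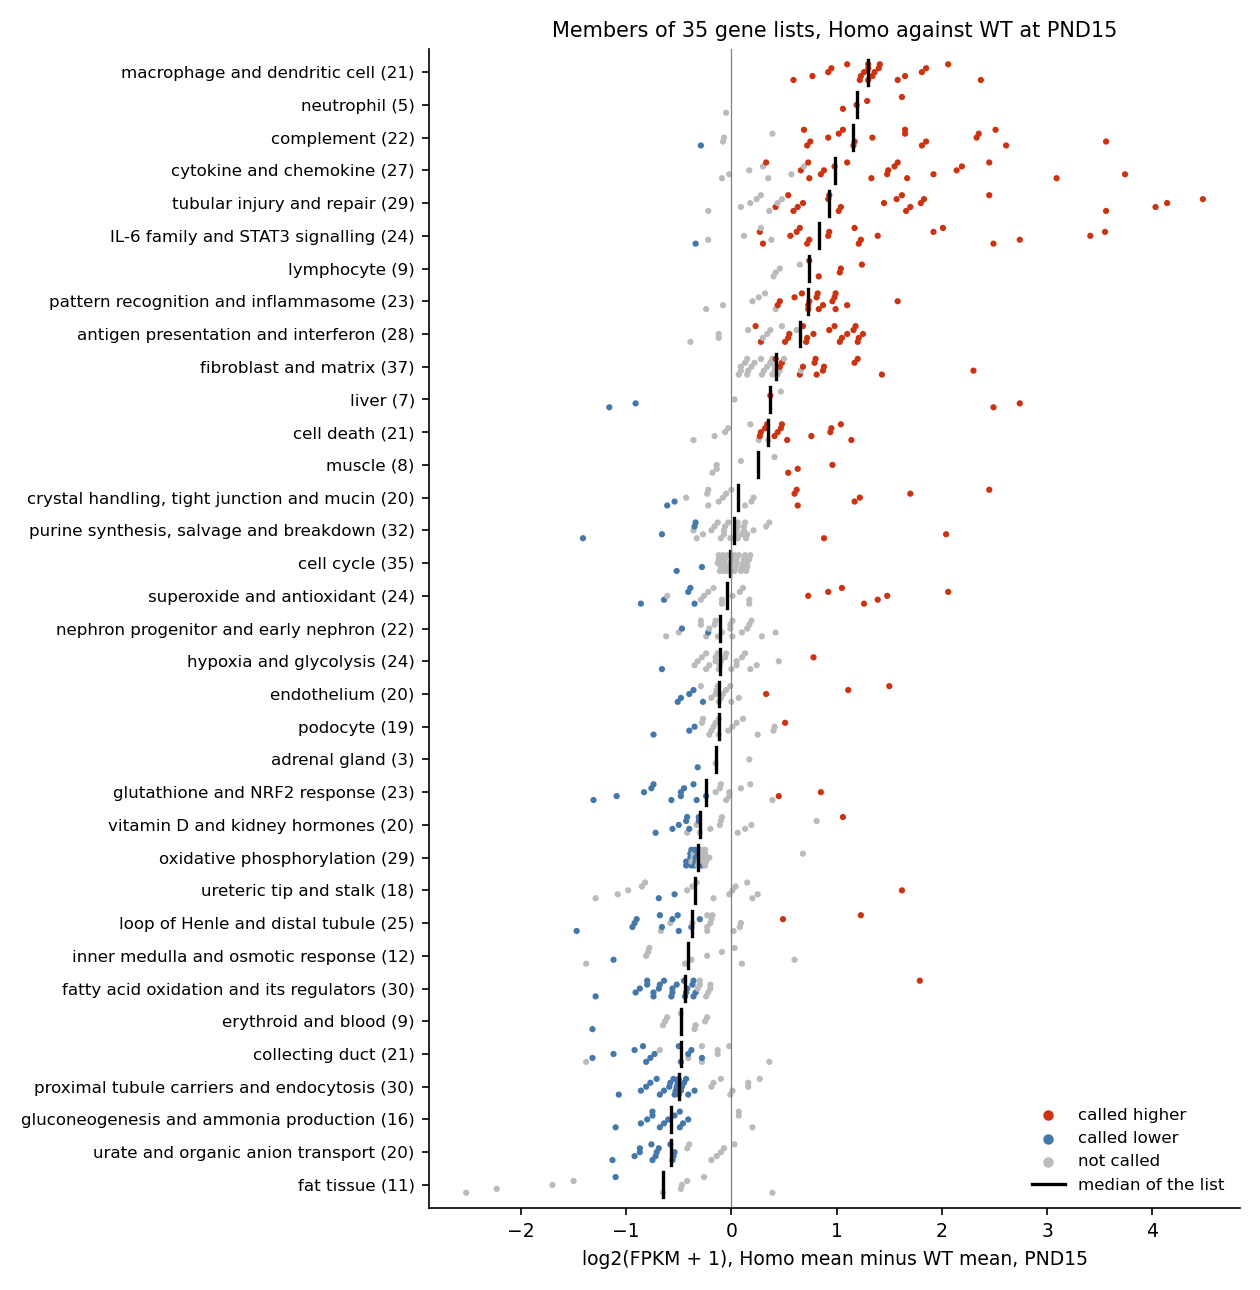
Difference in log2(FPKM + 1), Homo mean minus WT mean at PND15, for each tested member (points) of 35 gene lists, with the number tested after each name and the median as a bar; colours mark calls at an adjusted p under 0.05. Immune, injury and matrix lists lie right of 0 and tubule carrier and metabolic lists left of it, while the cell cycle list, with a median of -0.01, stays around 0.

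Several of the largest falls were of genes outside the lists. Hnmt, which inactivates histamine, was at 25, 27, 23.1 and 19.2 FPKM in WT and at 3.68, 8.37, 4.9 and 14.3 FPKM in Homo (-1.62 ± 0.34, limma adjusted p = 0.0192). Slco1a6, an organic anion carrier with close paralogs, fell from 111 to 44.7 FPKM. Sbspon was at 31.8, 32.9, 39 and 32.2 FPKM in WT and at 8.9, 13, 8.55 and 21.1 FPKM in Homo, and was the steadiest of these, called whichever library was left out (adjusted p = 0.0127 in the full set). Selenbp1, a methanethiol oxidase, had the largest fall, from 28.2 ± 12.2 to 6.04 ± 5.72 FPKM (SD, n = 4; adjusted p = 0.0421), but its Het mean was 5.22 FPKM, as low as Homo, and its call was kept in 1 of the 8 fits that left out a library.

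Marker lists of neighbouring tissues held calls in places, in a comparison where 17% of all genes were called. Fat markers varied most between libraries: Ucp1, the brown fat uncoupler, was at 0.415, 12.9, 30.8 and 31.7 FPKM in WT and at 0.0578, 0, 0 and 17.1 FPKM in Homo, and Fabp4 at 21.5, 74.7, 156 and 130 against 7.99, 12.2, 5.36 and 95.4 FPKM. Both split within each genotype, with WT library 1 low and Homo library 4 high. Apart from Pck1, which the proximal tubule also makes, no fat marker passed, and the rest of the list summed to 45 to 296 FPKM in WT and 38.5 to 195 in Homo. The erythroid list summed to 2170 to 3440 FPKM in WT and 1090 to 2710 in Homo, with only Slc4a1, also an intercalated cell gene, called (1 of 9). The inner medulla list (1 of 12 called, Aqp2) summed to 3450 to 4210 and 2210 to 3320 FPKM, the muscle list (3 of 8 called, all higher) to 29.4 to 38.4 and 41.8 to 55.7 FPKM, and the adrenal list (1 of 3 called, Fdx1, lower) to 47.7 to 58 and 41.2 to 48.6 FPKM. In the liver list, which holds Fga and Fgb, 3 of 7 rose and 2 fell; Cyp2e1 fell from 119 to 53.4 FPKM. The part of these tissues in the results was not tested.

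The Homo libraries differed in how far they had moved, with library 4 nearest to WT for most called genes. Of the 1270 genes called higher, the highest Homo value was in library 1 for 647 and in library 3 for 570, and the lowest was in library 4 for 1084. Of the 1182 called lower, the lowest was in library 1 for 597 and in library 3 for 519, and the highest was in library 4 for 909. The median difference from the WT mean over these genes was 0.86, 0.60, 0.81 and 0.33 in Homo libraries 1 to 4, and over the 1182 lower genes it was -0.63, -0.39, -0.62 and -0.28. The Het libraries lay between -0.15 and 0.05 for the higher genes and between 0.01 and 0.17 for the lower ones. The Het mean was nearer to WT than to Homo for 1242 of the 1270 and 1107 of the 1182 genes. Spread among the Homo libraries was wider for called genes (median SD 0.275 for higher and 0.199 for lower genes) than over all genes (0.139), whereas WT had 0.123, 0.114 and 0.121. Library 4 also had the lowest Xdh of the 4. The order of Xdh was 3, 1, 2, 4 from high to low, and that of the median difference 1, 3, 2, 4 from large to small in both directions. A link between the orders was not tested. These values describe genes chosen by the same libraries and carry no test.

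**Figure D3:**
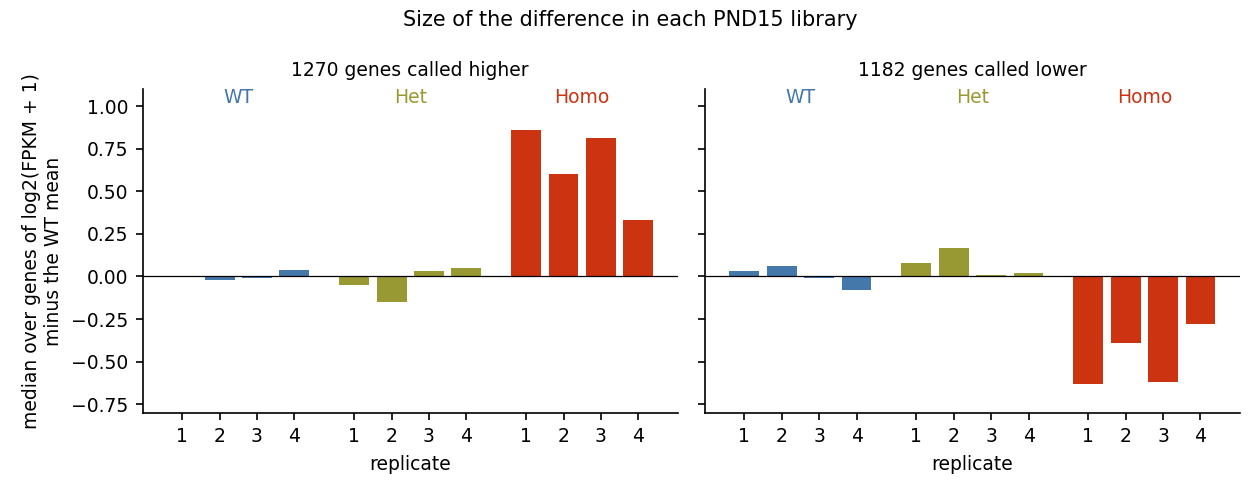
Median over the 1270 genes called higher and the 1182 called lower of log2(FPKM + 1) minus the WT mean, with a bar for each PND15 library of WT, Het and Homo. Homo libraries 1 and 3 lie farthest from 0 and library 4 nearest (0.33 and -0.28), while the Het libraries lie near 0.

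The series title asks about kidney maturation, so genes that change with age were chosen in the heterozygotes, whose libraries are in neither arm of the comparison. Between PND5 and PND15, 341 genes rose in Het by at least 1 on the log2 scale with a limma adjusted p under 0.05 (2.37% of those tested), and 216 fell (1.5%). Of the 341 rising genes, 190 (55.7%) were lower in Homo than in WT at PND15, against 8.2% of all genes, and 22 (6.45%) were higher. Their median difference was -0.60, and 83% were below 0. Their median change from PND5 to PND15 was 1.07 in WT, 0.49 in Homo and 1.27 in Het. With the sign set aside, the change was smaller in Homo than in WT for 286. For 69 of them the difference of the genotype differences between PND15 and PND5 was itself called lower, and for 11 higher. Slco1a6, Hnmt, Egf and Xdh were among those lower in Homo. The rise of Xdh itself was not smaller in Homo (1.94) than in WT (1.69). Rising genes that were higher in Homo included Spp1, the copper carrier Cp (31.2 to 98.9 FPKM) and Sectm1a (4.21 to 23.1 FPKM). Leaving out 1 library gave 18.5% (without WT library 1) to 65.4% (without Homo library 4) of rising genes called lower, and with no minimum size in Het the share was 32.6%. It was 31.1% without Homo library 1, 22% without Homo library 3, 19.9% without WT library 2 and 32% without WT library 3.

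Genes that normally fall over this time moved less clearly. Of the 216 falling genes, 49 (22.7%) were higher in Homo, against 8.81% of all genes, and 7 (3.24%) were lower, with a median difference of 0.15. Genes with no WT library at 1 FPKM could only differ upwards. The counts of rising and falling genes were not repeated without them, so the 22.7% may hold such genes. Their median change was -1.01 in WT and -0.80 in Homo, and with the sign set aside it was smaller in Homo for 139. The interaction was called higher for 34 and lower for 2. Lrat, which esterifies retinol, rose from 0.276 to 6.58 FPKM, and the lipoxygenase Alox15b from 4.99 to 19.8 FPKM. Wnt11 and Afp, the fetal albumin relative, were among the 7 that were lower. Without Homo library 3 the share called higher was 12%, without Homo library 4 it was 35.2%, and without Homo library 1 or WT library 1, 2 or 3 it was 13.4 to 14.8%.

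**Figure D4:**
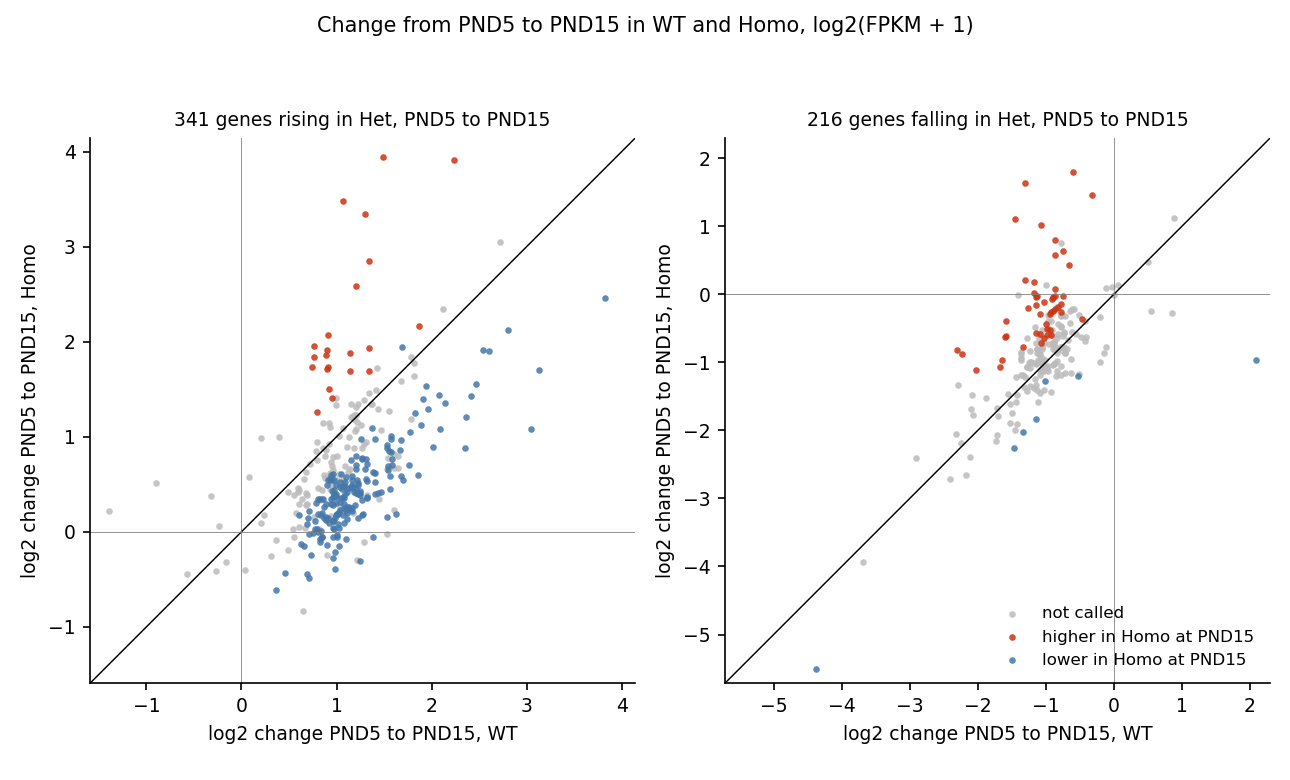
Change in log2(FPKM + 1) from PND5 to PND15 in WT (x axis) and Homo (y axis) for the 341 genes rising and the 216 falling in Het, one point per gene, coloured by the call at PND15; the diagonal marks equal change. Most rising genes lie below the diagonal, and the falling genes scatter around it. With the sign set aside, 286 of the 341 rising genes changed less in Homo.

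The markers that separated the genotypes at PND15 overlapped between them at PND5, and the change between these ages was tested directly. At PND5, Havcr1 averaged 0.608 FPKM in WT (n = 3) and 0.622 in Homo (n = 4), Lcn2 5.8 and 6.01, Clu 58.6 and 58.8, Mmp7 0.0763 and 0.0144, and Egf 3.7 and 5.59 FPKM. The libraries of the genotypes overlapped for all 5 markers at that age, although Xdh was at 4.18 FPKM in WT and 0.667 in Homo. The difference at PND15 exceeded that at PND5 by 4.46 for Havcr1, 4.11 for Lcn2, 3.57 for Clu and 4.11 for Mmp7 on the log2 scale, and fell by 1.97 for Egf (limma interaction, adjusted p = 0.000328, 0.00187, 0.00327, 0.000457 and 0.0271). Over all genes the interaction was called higher for 691 (4.79%) and lower for 393 (2.73%), a total of 1084 that was 276 (without WT library 1 of PND5) to 2385 (without Homo library 4 of PND15) with 1 library left out. It was also below 1084 by more than 1.5 times without Homo library 1 (481) or 3 (421) or WT library 1 (562), 2 (452) or 3 (588) of PND15, Homo library 1 (581), 2 (476) or 4 (467) of PND5, or WT library 2 (339) or 3 (673) of PND5. Atf3, a stress transcription factor, had one of the smallest p-values among the higher, at 1.59, 1.35, 1.01 and 0.87 FPKM in WT at PND15 and 11.4, 8.48, 7.6 and 6.34 FPKM in Homo. Scnn1g and Mturn were among the lower; Mturn was at 25, 24.8, 24.7 and 24.2 FPKM in WT and 15.1, 14.2, 13.8 and 16.1 FPKM in Homo at PND15, narrow groups far apart (adjusted p = 0.00315).

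By PND21 the markers were further apart in mean, but few genes differed between the ages by test. At PND21 Havcr1 averaged 1.06 ± 0.353 FPKM in WT and 175 ± 69.7 in Homo (SD, n = 3 each), Lcn2 8.06 and 373, Clu 62.5 and 1530, Mmp7 0.0437 and 36.3, and Egf 75 and 6.27 FPKM. None of these 5 passed the interaction test between PND21 and PND15 (limma adjusted p = 0.108, 0.304, 0.334, 0.31 and 0.137). Over all genes 33 passed higher (0.229%) and 28 lower (0.194%); the total of 61 was 17 without WT library 3 of PND21, 285 without Homo library 1 of PND15, and 352 when all 44 libraries were fitted. It was 29 without Homo library 2 and 39, 37, 24 and 25 without WT libraries 1 to 4 of PND15, 22 and 30 without Homo libraries 1 and 2 of PND21, and 34 and 29 without WT libraries 1 and 2 of PND21. S100a9 went from 3.05 and 9.41 FPKM in WT and Homo at PND15 to 2.2 and 61.1 FPKM at PND21, and Reg3g, a secreted lectin that kills bacteria, from 0.104 and 2.92 to 0 and 28.1 FPKM. Fgg, at 0.669 and 18.5 FPKM on PND15, was at 0.501 and 87.5 FPKM on PND21 (interaction adjusted p = 0.021). Igfbp3, a binding protein of insulin-like growth factors, was at 64.6 and 87.7 FPKM at PND15 (adjusted p = 0.0683) and at 96.1 and 43.3 FPKM at PND21.

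**Figure D5:**
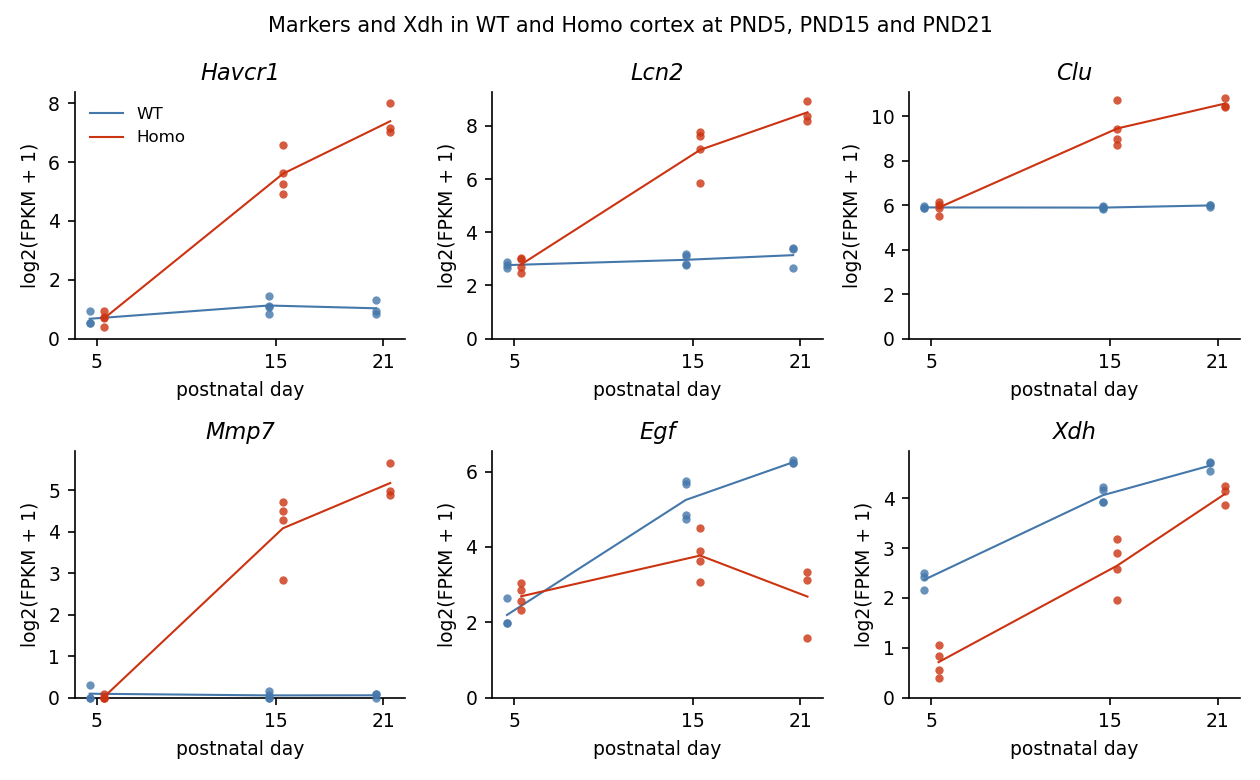
log2(FPKM + 1) of Xdh and the markers at PND5, PND15 and PND21 in WT and Homo, one point per library and a line through the group means. The marker lines lie together at PND5 and apart at PND15 and PND21, whereas Xdh is lower in Homo at all 3 ages and rises with age in both genotypes.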

How the data were processed

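Poly-A RNA of male rat kidney cortex was sequenced, and the authors deposited 1 table with an FPKM value for each of 32545 genes in 44 libraries, with gene positions and a gene length. The tools listed in the submitters' processing notes are featureCounts 1.5.0-p3, StringTie 1.3.3b, HISAT2 2.0.5 and fastp, with no step given for any; neither the genome build nor whether counting used strand is stated, so overlapping and antisense genes may share reads. From the FPKM values and the deposited gene length, whole reads were recovered within 0.01 of a read for 100% of the values above 0; they gave the depth and served in 1 alternative (voom).

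Genes with at least 1 FPKM in 3 of the 8 libraries were compared on log2(FPKM + 1) with limma 3.58.1 (trended and robust, statmod 1.5.0, R 4.3.3) and Benjamini-Hochberg adjustment over all of them, called at an adjusted p under 0.05. The pseudocount of 1 makes a log2 difference understate the change of low genes, and folds are ratios of mean FPKM. Every adjusted p in the text is limma's. The differences between ages were limma interactions over the 15 (PND5 and PND15) or 14 (PND15 and PND21) libraries concerned. In simulated data with known changes, the fit recovered 58.9% of 2-fold and 99% of 4-fold changes, with 12 and 20 false calls. The simulation gave all libraries the same spread setting, whereas the Homo libraries here varied more for called genes. Other software was Python 3.11.15 and scipy 1.17.1.

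The gene lists and the markers were chosen with earlier results of these data known, so their counts and medians describe the members and carry no test. The 35 lists named 857 genes, of which 818 were in the table and 696 tested; 348 were called (50%). Named genes are Xdh and the 5 markers, the 12 largest rises and 12 largest falls (called, named by a symbol, groups not overlapping, higher mean at 5 FPKM or more), up to 5 called members per list by p, and the 5 strongest per direction for each interaction and for the genes that change with age; further list members are named as examples, chosen after their values were seen. Clone and locus names were not counted as symbols. Paralogs that can share reads include the Klk1c, Slco1a, RT1, C4, Cyp4a and haemoglobin genes. Promoter windows from RefSeq (GRCr8) matched 9685 of the 14412 genes tested (67.2%). Alternatives were the pseudocount, the filter, scaling, weights, voom, other sets of libraries in the fit, and leaving out each library. Some genes that the naming rule takes are not reported here.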

Additional observations from a re-analysis of the deposited data

Results flagged for a closer look

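For 3 groups of 4 libraries 1 library was flagged by Dixon's ratio, the gap to its nearest neighbour divided by the range. Chance passes the limit in about 1 group in 20. The number of groups screened is not given, and the 3 are not all such groups. Fabp4, for example, was at 95.4 FPKM in Homo library 4 and at 5.36 to 12.2 FPKM in the other Homo libraries. Homo library 1 stood apart for Sfn (250 FPKM against 99.9 to 104, ratio 0.975) and Fgb (54.5 against 18.5 to 23, ratio 0.874). WT library 3 stood apart for Sbspon (39 FPKM against 31.8 to 32.9, ratio 0.846).

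The Homo minus WT difference itself differed between PND15 and PND5 for 1084 genes (limma interaction, adjusted p under 0.05). On the log2 scale it differed by 4.46 for Havcr1, 4.11 for Lcn2, 3.57 for Clu, 4.11 for Mmp7, 3.13 for Il24, 2.30 for Il1rn and 2.36 for Atf3. It differed by -1.97 for Egf, -0.94 for Scnn1g, -0.76 for Egfl6, -1.02 for Veph1, -0.81 for Mturn and -0.72 for Acsl3. Egfl6 and Veph1 were at 20.2 and 8.26 FPKM in WT at PND15 and at 12.6 and 4.11 FPKM in Homo.

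Between PND21 and PND15 it differed for 61 genes. It was greater at PND21 by 2.98 for S100a9, 1.92 for Ccl17, 3.11 for Reg3g, 2.40 for Rprm and 1.67 for Dcdc2. It differed by -0.77 for Bcat2, -0.95 for Cep63, -1.14 for Coch, -0.83 for Fxyd6 and -1.57 for Igfbp3. At PND15 the chemokine Ccl17, the enzyme Bcat2, Coch, Fxyd6 and Igfbp3 did not differ by test between the genotypes.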

How the results depend on the processing

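Scaling moved the balance of the calls most: with TPM 1994 genes were called higher and 684 lower, against 1270 and 1182. Without a filter on low values 752 were called lower. The call of Xdh was lost in the fit of all 44 libraries (-1.41, adjusted p = 0.0807 by limma), in which the interaction between PND21 and PND15 was called for 352 genes in place of 61. With no minimum size in Het, 32.6% of the rising genes were called lower in place of 55.7%. The other 60 values of the main results under alternatives that kept every library stayed within 1.5 times, on the same side of the threshold. With 1 library left out, 825 to 3410 genes were called, 514 to 1818 higher and 311 to 1592 lower; 276 to 2385 passed the interaction between PND15 and PND5 and 17 to 285 that between PND21 and PND15; 149 to 417 of the list members were called; 18.5 to 65.4% of the rising genes were lower and 12 to 35.2% of the falling genes higher; and the Xdh difference was -1.58 to -1.18. The lowest number of calls at PND15 (825) came without WT library 2 and the highest (3410) without Homo library 4. Of the 170 named genes called, 102 were called whichever library was left out and 92 in every setting. Fxyd6, not called (0.02), was at -0.02 without Homo library 3 (adjusted p = 0.862) or WT library 4 (0.884), and 0.05 without Homo library 1. The causes were not tested. No paired analysis was possible because the replicate numbers only follow the records and no label pairs libraries. A gene that was not called with 4 libraries a group is not shown to be level.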
